A study of Mus musculus with 6 samples.

Results

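Fbxw15, Fbxw24, Gm42755 and Gm42756 are 4 adjacent transcription units on mouse chromosome 9, and they are 4 of the 34245 genes listed for these islet libraries. They were found by symbol and chromosome, and they had been chosen by their KO against HET difference in these same 6 libraries, which is therefore described with no test. For Fbxw15, the authors' deposited table gives a fold change of 0.327, in the direction HET over KO, and a corrected p of 0.001 by a test that is not stated.

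Poly(A) RNA from whole islets of C57BL/6J mice aged 5 weeks was sequenced in 6 libraries. The KO group had 3 libraries, from mice whose conditional Abca12 allele (tm1d after deletion) had been removed by Rip1-Cre. The HET group had 3 libraries, from mice with a single floxed Abca12 allele and Rip1-Cre, so every animal carried the recombinase. Rip1-Cre is driven by a rat insulin promoter and acts in insulin-producing cells, whereas the RNA came from all cells of the islets. In such bulk samples, fewer cells of a type and less RNA per cell cannot be told apart. Library totals, recovered from the scale of the deposited values, were 27447026 to 29739290 reads in KO and 30934062 to 35511008 reads in HET. Reads in the listed genes were 18885055 to 23504922 over the libraries.

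The deleted gene could not serve as a check of the labels. Abca12, a lipid transporter gene on chromosome 1, had 2 reads in KO 1 and 0 reads in each of the other 5 libraries. The islet labels were borne out by 7 beta cell markers (Ins1, Ins2, Iapp and others), whose sum was 105650 to 138958 RPM (reads per 1000000 reads of the library) in the KO group, against 106819 to 115959 RPM in the HET group. Acinar RNA varied widely, with 10 markers summing to 808 to 12563 RPM in KO, against 412 to 30040 RPM in HET. KO 2 held both Xist, at 459.3 RPM, and Y-linked Ddx3y, at 49.8 RPM, so it held RNA typical of both sexes. KO 1 and HET 2 held Xist, at 329.3 and 295.5 RPM, and 0 RPM of Ddx3y. KO 3, HET 1 and HET 3 held Ddx3y, at 53.6, 102.0 and 49.7 RPM, and at most 0.162 RPM of Xist. Each group thus mixed libraries of both kinds, and the part of sex in the members' differences was not tested. The first principal component, with 70.5% of the variance, put the libraries with the lower animal codes (KO 1, KO 2 and HET 1) apart from those with the higher codes (KO 3, HET 2 and HET 3).

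F-box proteins are the substrate-binding parts of SCF ubiquitin ligases, complexes in which Skp1 and the scaffold Cul1 join an F-box protein to the RING protein Rbx1. Proteins of the Fbxw class carry WD40 repeats that hold the substrate. Mice have a tandem array of Fbxw genes on chromosome 9, known mainly from oocytes, in contrast to widely expressed relatives such as Fbxw7 and Fbxw11. In mouse cells, Fbxw15 has been reported to target the histone acetyltransferase Kat7 (Hbo1) for degradation, and in mouse oocytes Fbxw24 has been linked to meiotic prophase.

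The 4 units lie within 88958 bases (GRCm38, chromosome 9, 109537100 to 109626057). Fbxw15 (ENSMUSG00000074060.10, minus strand, 109552602 to 109568262) and Fbxw24 (ENSMUSG00000062275.7, minus strand, 109601116 to 109626057) are protein-coding genes of 10 exons. Gm42755 (ENSMUSG00000106495.1, minus strand, 109572732 to 109574224) is a single-exon transcript of 1493 bases whose biotype awaits experimental proof in the annotation. It lies between the F-box genes, 4.47 kb upstream of Fbxw15 and 26.9 kb downstream of Fbxw24. Gm42756 (ENSMUSG00000104674.1, plus strand, 109537100 to 109552780) is an antisense transcript of 4 exons. Its last exon covers all 168 bases of exon 10 of Fbxw15, which is 11.2% of the Fbxw15 transcript and 6.43% of its own. The sources used here do not say whether reads were counted by strand, so reads in those 168 bases cannot be assigned to either gene.

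The F-box genes of the array are close copies, which bears on how reads are assigned between them. The annotated transcripts of the 13 other Fbxw genes on chromosome 9 were 81.2% to 89.9% identical to Fbxw15 over aligned bases. In 10 of the 13, all 8 inner exons had the same lengths as in Fbxw15. Exon 2, 38 bases of coding sequence, shows how far some of the copies that held reads resemble each other. Fbxw13, Fbxw20 and Fbxw21, which held few reads, are left out. Bases that differ from Fbxw15 are in capitals.

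Fbxw15 (chr9:109567113-109567150, minus strand): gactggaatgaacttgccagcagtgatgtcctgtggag
Fbxw24 (chr9:109625143-109625180, minus strand): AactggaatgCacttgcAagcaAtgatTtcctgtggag
Fbxw25 (chr9:109663734-109663771, minus strand): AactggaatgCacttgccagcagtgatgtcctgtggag
Fbxw18 (chr9:109701591-109701628, minus strand): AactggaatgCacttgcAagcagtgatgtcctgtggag

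These GRCm38 sequences are from GENCODE M21 transcripts, 5′ to 3′. Over this exon Fbxw24 differed from Fbxw15 at 5 bases, Fbxw25 at 2 and Fbxw18 at 3. Across whole transcripts, Fbxw15 and Fbxw24 shared 0 windows of 50 bases, out of 1446 in Fbxw15. Fbxw15 shared 120 such windows with the antisense Gm42756, 85 with Fbxw27, 54 with Fbxw13 and 38 with Fbxw25. In all, 17.0% of the windows of Fbxw15 and 5.77% of those of Fbxw24 occurred in a transcript of another gene. Gm42755 shared 0 of its 1444 windows with any other gene. The sources used here give neither the read length nor the treatment of reads with several matches.

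Fbxw15 RNA was higher in every KO library than in every HET library. Its level was 6.06, 7.16 and 5.61 RPM in KO 1 to 3, against 1.97, 2.28 and 1.90 RPM in HET 1 to 3. These levels rest on 177, 213 and 154 reads in KO 1 to 3, against 61, 81 and 63 reads in HET 1 to 3. The lowest KO library, KO 3, stood well above the highest HET library, HET 2. The means were 6.28 ± 0.798 RPM in KO, against 2.05 ± 0.202 RPM in HET (n = 3 each, SD), a ratio of 3.06.

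Fbxw24, the most abundant of the 4, was also higher in KO, with less distance between the groups. It had 15.5, 17.6 and 11.3 RPM in KO 1 to 3, against 5.75, 7.88 and 9.53 RPM in HET 1 to 3. The lowest KO library, KO 3, lay close above the highest HET library, HET 3, and in reads before scaling it lay just below it, at 309 against 316. The means were 14.8 ± 3.20 RPM in KO, against 7.72 ± 1.89 RPM in HET (n = 3 each, SD), a ratio of 1.91.

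Gm42755, the single-exon transcript between these F-box genes, was higher in KO as well. It had 7.61, 10.1 and 4.70 RPM in KO 1 to 3, against 2.26, 2.08 and 3.41 RPM in HET 1 to 3. The groups did not overlap, and KO 3 was again the lowest KO library and HET 3 the highest HET library. The means were 7.46 ± 2.70 RPM in KO, against 2.58 ± 0.718 RPM in HET (n = 3 each, SD), a ratio of 2.89.

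Gm42756, the antisense transcript, had few reads and was near the limit of detection in HET. It had 15, 20 and 16 reads in KO 1 to 3, against 4, 3 and 5 reads in HET 1 to 3. In RPM these are 0.514, 0.673 and 0.583 in KO, against 0.129, 0.0845 and 0.151 in HET, where 3 reads correspond to 0.0845 to 0.109 RPM over the libraries. All 3 KO libraries lay above all HET libraries. The means were 0.590 ± 0.0795 RPM in KO, against 0.122 ± 0.0338 RPM in HET (n = 3 each, SD), a ratio of 4.85. Fbxw15, whose last exon it covers, was higher in the same libraries, and the part of shared reads in this difference was not tested.

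**Figure D1:**
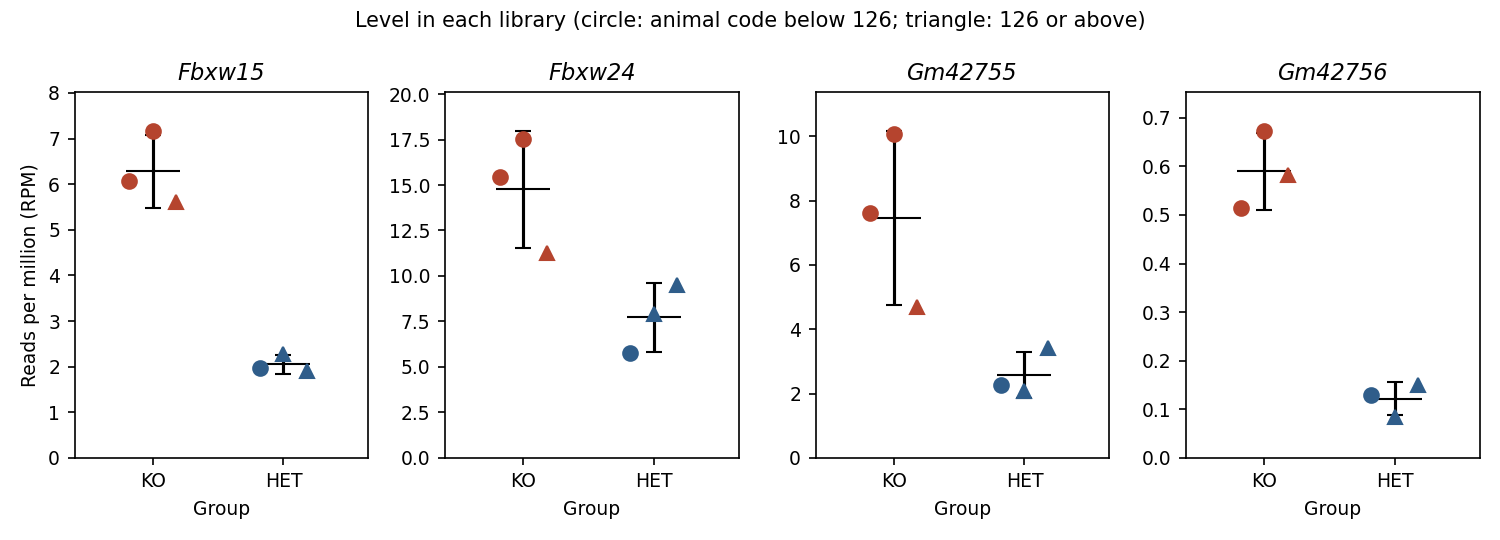
Level in RPM of each of the 4 transcription units in every library, KO left of HET, with the mean of 3 libraries as a horizontal line, the SD as a vertical bar and an axis from 0 in each panel. Circles are the lower and triangles the higher animal codes. The KO libraries lie above the HET libraries in all 4 panels, and for Fbxw24 and Gm42755 the KO triangle (11.3 and 4.70 RPM) is the lowest KO point.

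All 4 members were higher in every KO library, which their choice on this contrast makes a description. Over all 22694 genes with any read, 4.53% had every KO library above every HET library. Of the 14238 genes averaging 1 RPM or more, the filter used for testing, the share was 4.2%. Fbxw15, Fbxw24 and Gm42755 passed that filter and Gm42756 did not. On the log2(RPM + 1) scale the KO minus HET differences were 1.25 for Fbxw15, 1.21 for Gm42755, 0.86 for Fbxw24 and 0.50 for Gm42756. This scale shrinks the difference of a gene at a low level such as Gm42756. Among genes of at least 1 RPM, 0.597% had a difference at or above that of Fbxw24. By limma over these genes, 0% passed an adjusted p of 0.05 and 1.76% (250 genes) had an unadjusted p under 0.05. Limma-voom on the recovered reads also called 0 genes, with 252 at an unadjusted p under 0.05.

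**Figure D2:**
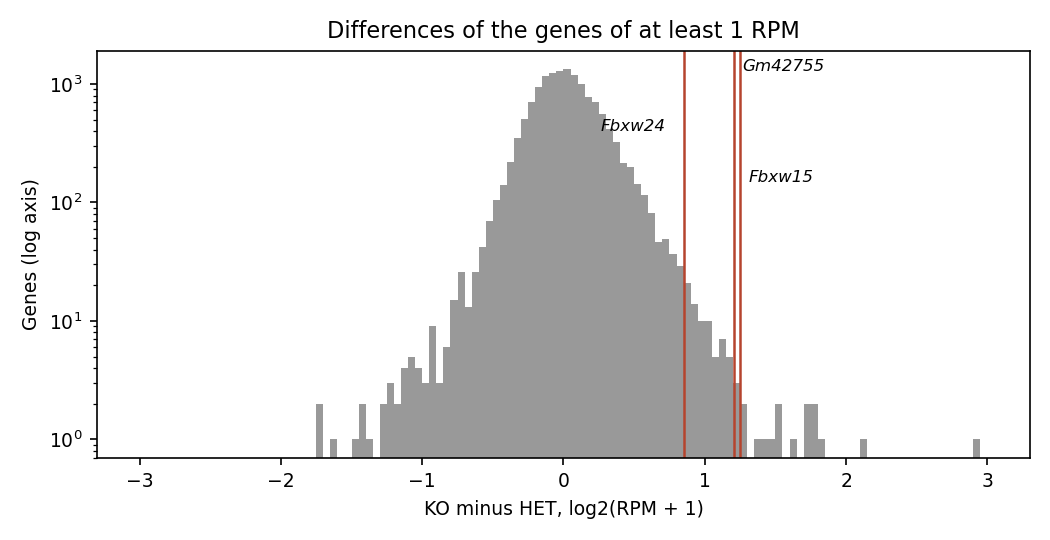
Histogram of the KO minus HET differences of the 14238 genes averaging 1 RPM or more, on the log2(RPM + 1) scale with a log axis for the number of genes. Red lines mark Fbxw24 (0.86), Gm42755 (1.21) and Fbxw15 (1.25) in the upper tail.

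Corrected for transcript length, the members keep the order Fbxw24, Gm42755, Fbxw15, Gm42756 in both groups. Levels were 9.92 ± 2.15 RPM per kilobase of exon (RPKM) in KO and 5.19 ± 1.27 RPKM in HET for Fbxw24, and 5.00 ± 1.81 RPKM in KO and 1.73 ± 0.481 RPKM in HET for Gm42755 (SD, n = 3 each). Fbxw15 had 4.20 ± 0.534 RPKM in KO and 1.37 ± 0.135 RPKM in HET (SD, n = 3 each). Gm42755 and Fbxw15 thus differed by less than the SD of Gm42755 in each group. Gm42756 was at 0.226 ± 0.0304 RPKM in KO and 0.0465 ± 0.0129 RPKM in HET (SD, n = 3 each). The median over 12591 tested genes with a gene model was 3.69 RPKM in KO and 3.66 RPKM in HET. Fbxw15 exceeded 54.4% of those genes in KO and 24.5% in HET, and Fbxw24 exceeded 79.4% in KO and 60.7% in HET.

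The proportions of the members to each other differed between libraries. Fbxw24 had 2.55, 2.45 and 2.01 times the RPM of Fbxw15 in KO 1 to 3, against 2.92, 3.46 and 5.02 times in HET 1 to 3. The 2 groups did not overlap in this ratio, which was 2.34 ± 0.289 in KO and 3.80 ± 1.09 in HET (SD, n = 3 each). Gm42755 had 1.25, 1.41 and 0.838 times the RPM of Fbxw15 in KO 1 to 3, against 1.15, 0.914 and 1.79 times in HET 1 to 3. Here the groups overlapped, with HET 3 the highest library and KO 3 the lowest. Gm42755 had 0.492, 0.575 and 0.417 times the RPM of Fbxw24 in KO 1 to 3, against 0.393, 0.264 and 0.358 times in HET 1 to 3. Gm42756 had 0.0847, 0.0939 and 0.104 times the RPM of Fbxw15 in KO 1 to 3, against 0.0656, 0.0370 and 0.0794 times in HET 1 to 3. Both ratios were thus higher in the KO libraries, without overlap. For Gm42756 over Fbxw15 this separation rests on few reads. Its nearest libraries, KO 1 and HET 3, held 15 and 5 reads of Gm42756. These ratios are built from the values that chose the members, and how often ratios of other gene pairs separate the groups was not computed.

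Between the sides of the animal code split, the KO over HET ratio varied more for Fbxw24 and Gm42755 than for Fbxw15. Among the lower codes, the mean of KO 1 and KO 2 was 2.87 times HET 1 for Fbxw24, 3.91 times for Gm42755 and 3.35 times for Fbxw15. Among the higher codes, KO 3 was 1.29 times the mean of HET 2 and HET 3 for Fbxw24, 1.71 times for Gm42755 and 2.68 times for Fbxw15. For Gm42756 the ratio was 4.59 among the lower codes and 4.96 among the higher codes. Each side holds a group with a single library, so the difference between sides was not tested. Without KO 2, the library with both Xist and Y-linked RNA, the KO over HET ratios were 2.85 for Fbxw15, 1.73 for Fbxw24, 2.38 for Gm42755 and 4.51 for Gm42756.

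Acinar RNA and the sum of 8 oocyte genes also differed between libraries. Acinar markers summed to 3326, 12563 and 808 RPM in KO 1 to 3, against 30040, 713 and 412 RPM in HET 1 to 3. KO 2 was thus the highest KO library both for acinar RNA and for all 4 members. Fbxw15, Fbxw24 and Gm42755 also had the order of acinar RNA among the KO libraries, with KO 3 the lowest. Every library with a lower animal code (KO 1, KO 2 and HET 1) held more acinar RNA than every library with a higher code. The low place of KO 3 thus cannot be told apart from the animal code split. HET 1, the highest library of all for acinar RNA, was the lowest HET library for Fbxw24. For Fbxw15, Gm42755 and Gm42756 it lay between HET 2 and HET 3. Since the array is known from oocytes, 8 oocyte genes were also read. They summed to 2.33, 3.43 and 0.765 RPM in KO 1 to 3, against 3.72, 0.986 and 0.995 RPM in HET 1 to 3, with the highest sum in a HET library. Nlrp5, Zp1 and Oosp1 had 0 reads in every library, and 1 of the 8 averaged 1 RPM or more. Sums this low do not establish that oocyte RNA was present. The oocyte sums were also higher in every library with a lower animal code. The part of acinar RNA and of these oocyte genes in the members' differences was not tested.

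The other Fbxw genes of the array were nearly silent in islets. Of 12 listed on chromosome 9 besides the members, 7 (Fbxw14, Fbxw28, Fbxw22, Fbxw16, Fbxw19, Fbxw26 and Fbxw27) had 0 reads in all 6 libraries. Fbxw21 and Fbxw20 had 0 reads in all KO libraries, against at most 1 and 4 reads in a HET library. Fbxw13 had at most 2 reads in a KO library, against at most 7 reads in a HET library. None of the 12 reached a mean of 1 RPM. With no filter on low values, limma called 0 of the 5 that held reads (lowest adjusted p 0.980, with 1 at an unadjusted p under 0.05).

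Fbxw25, the next gene upstream of Fbxw24 at a distance of 19.1 kb, had 14, 31 and 13 reads in KO 1 to 3, against 0, 5 and 10 reads in HET 1 to 3. The KO libraries again lay above the HET libraries, at 0.665 ± 0.327 RPM in KO, against 0.147 ± 0.151 RPM in HET (n = 3 each, SD), a ratio of 4.51. That ratio was 9.45 without HET 3 and 3.01 without HET 1, the library with 0 reads. Of its 1441 windows of 50 bases, Fbxw25 shared 38 with Fbxw15 and 38 with Fbxw24. The part of shared reads in the difference of Fbxw25 was not tested. Fbxw18, the gene after it, had 0, 0 and 4 reads in KO 1 to 3, against 0, 10 and 16 reads in HET 1 to 3. Its reads lay in KO 3, HET 2 and HET 3, the libraries with the higher animal codes. None of the 12 other Fbxw genes on chromosome 9 held reads in all 6 libraries.

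**Figure D3:**
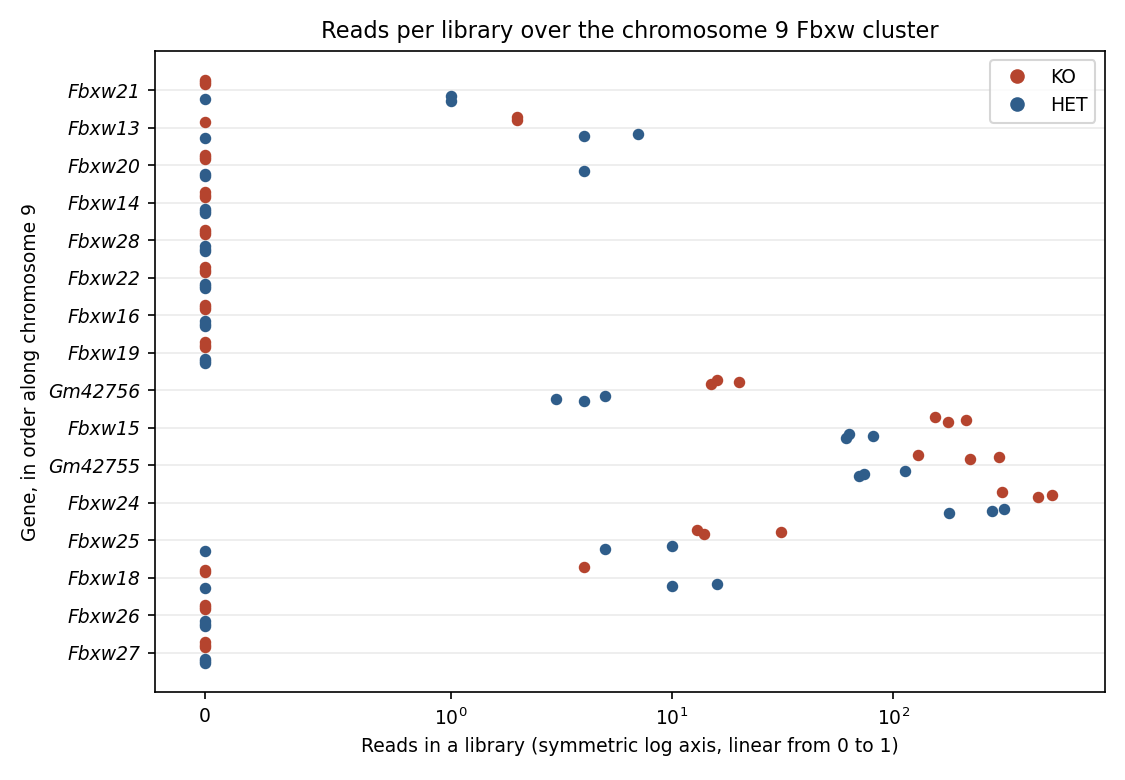
Reads in each library (symmetric log axis) for the 4 members and the 12 other Fbxw genes on chromosome 9, in order along the chromosome, KO dots above HET dots. Gm42756, Fbxw15, Gm42755 and Fbxw24 hold reads in all 6 libraries, Fbxw25 in 5, and 7 of the other Fbxw genes sit at 0 throughout.

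The start regions of the array are also close copies, and they are shown because genes with reads and genes without any share them. Of the 4 members, Fbxw15 and Fbxw24 had an entry in the RefSeq promoter table (GRCm38.p6). The lines give the 250 bases before the RefSeq start, 5′ to 3′. That start for Fbxw15, Fbxw25 and Fbxw26 is also the GENCODE start, and for Fbxw24 it lies just upstream of it. Capitals in Fbxw15 mark CAGCTG, an E-box, the kind of site bound by basic helix-loop-helix factors. Capitals in the other lines mark bases that differ from, or have no partner in, the aligned Fbxw15 sequence.

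Fbxw15 (chr9:109568263-109568512, minus strand): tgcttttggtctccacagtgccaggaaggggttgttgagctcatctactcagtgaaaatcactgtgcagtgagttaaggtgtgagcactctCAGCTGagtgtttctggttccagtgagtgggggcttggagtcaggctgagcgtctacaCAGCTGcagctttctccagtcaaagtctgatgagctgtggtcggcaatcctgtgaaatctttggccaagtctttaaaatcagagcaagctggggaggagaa
Fbxw24 (chr9:109626060-109626309, minus strand): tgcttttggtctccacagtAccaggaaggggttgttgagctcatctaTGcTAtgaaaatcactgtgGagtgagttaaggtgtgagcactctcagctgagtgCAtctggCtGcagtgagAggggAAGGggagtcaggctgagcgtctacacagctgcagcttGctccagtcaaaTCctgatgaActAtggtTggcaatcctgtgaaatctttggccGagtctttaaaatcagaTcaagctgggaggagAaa
Fbxw25 (chr9:109664653-109664902, minus strand): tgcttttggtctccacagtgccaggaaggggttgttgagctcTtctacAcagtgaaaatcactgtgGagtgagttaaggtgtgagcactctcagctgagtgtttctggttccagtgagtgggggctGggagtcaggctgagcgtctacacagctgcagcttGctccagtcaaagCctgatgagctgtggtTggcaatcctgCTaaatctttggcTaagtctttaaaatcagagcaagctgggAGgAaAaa
Fbxw26 (chr9:109746090-109746339, minus strand): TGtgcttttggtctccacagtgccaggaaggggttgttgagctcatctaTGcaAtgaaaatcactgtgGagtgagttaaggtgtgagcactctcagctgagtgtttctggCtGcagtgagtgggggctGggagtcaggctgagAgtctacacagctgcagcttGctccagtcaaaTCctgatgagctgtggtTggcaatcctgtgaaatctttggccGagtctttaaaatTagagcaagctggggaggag

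Fbxw24 was 90.8% identical to Fbxw15 over this stretch, with 23 mismatches. Fbxw25, which held few reads, was 94.4% identical, with 14 mismatches. Fbxw26, with 0 reads in every library, was 94.4% identical as well, also with 14 mismatches. Over the 10 other array promoters in the table, identity to Fbxw15 ran from 86.9% to 94.4%. CAGCTG, which reads the same on both strands, was found in 11 of 11 array promoters and in 13.0% of all 32851 promoters of that length. It occurred at least 2 times in 10 of the 11, and in 1.26% of all promoters. In Fbxw15, Fbxw24 and Fbxw25 the copies began at -159 and -101, counted from the RefSeq start. TATAAA and TAATTA, searched on both strands, were in 0 of the 11, against 12.4% and 4.84% of all promoters. CCAAT and GGGCGG, also on both strands, were each in 1 of the 11, against 33.8% and 32.7% of all promoters. The array promoters are copies of each other, so these counts are not independent.

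Outside the array, no neighbouring gene passed in limma. Within 250 kb of the members, 16 other genes were listed, those of the array included, 10 of them with 0 reads in all libraries, and 2 had at least 1 RPM. The 10 silent ones were 7 Fbxw genes and 3 further transcripts among them, Gm42494, Gm42493 and Gm43209. Nme6, a nucleoside diphosphate kinase family gene, had 5.37 ± 2.70 RPM in KO, against 6.56 ± 3.13 RPM in HET (n = 3 each, SD), and a difference on the log2 scale of -0.23 (95% interval -1.20 to 0.75). Cdc25a, a phosphatase gene of the cell cycle, had 17.3 ± 2.75 RPM in KO, against 19.2 ± 2.00 RPM in HET (n = 3 each, SD), and a difference on the log2 scale of -0.15 (-0.57 to 0.27). Neither passed in limma (adjusted p = 0.9998 for both), nor by limma-voom on the recovered reads, and neither had an unadjusted p under 0.05. Within 1000 kb, a distance chosen after seeing the data, 40 other genes were tested, 19 with a higher and 21 with a lower mean in KO and a median log2 difference of -0.03, against 0.01 over all genes tested. Limma called 0 of the 40, and 0 had an unadjusted p under 0.05. Plxnb1, a semaphorin receptor gene and the nearest of them on the side of Fbxw19, differed by 0.16 on the log2 scale (-0.24 to 0.55).

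**Figure D4:**
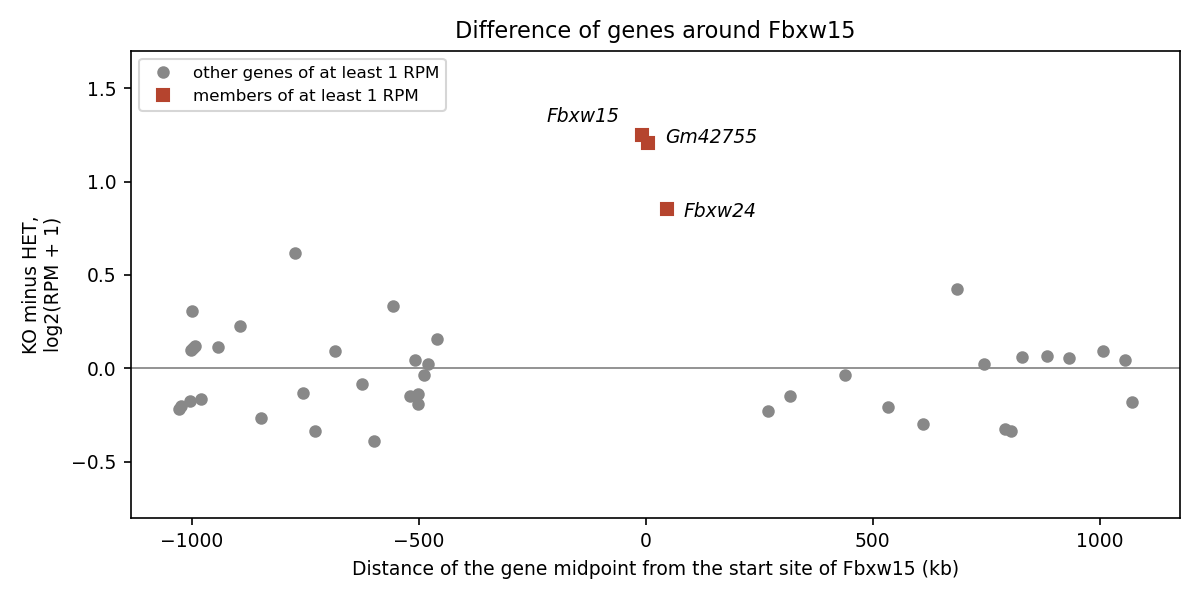
KO minus HET difference on the log2(RPM + 1) scale of each gene with at least 1 RPM, by the distance of its midpoint from the start site of Fbxw15 in kilobases. The 3 members (red squares, 0.86 to 1.25) lie above the 40 other genes (grey), which range from -0.39 to 0.62. The members were chosen on this contrast and the other genes were not, so this separation is a description.

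Of the Fbxw genes elsewhere in the genome, none of those tested passed. Of 9 listed, 8 were tested, 3 with a higher and 5 with a lower mean in KO (median log2 difference -0.03). On the log2 scale, Fbxw9 and Fbxw17 differed by 0.23 (95% interval -0.19 to 0.65) and 0.15 (-0.32 to 0.62). Fbxw8, which pairs with the cullin Cul7, and Fbxw4 differed by -0.44 (-1.12 to 0.24) and -0.28 (-0.88 to 0.32). Fbxw10, the gene below the filter, had 1.44, 1.28 and 0.729 RPM in KO 1 to 3, against 0.840, 0.507 and 0.452 RPM in HET 1 to 3. Its groups overlapped, and its ratio of means was 1.91, as for Fbxw24, with a log2 difference of 0.42 and no test at this filter. Limma called 0 of the 8, as did limma-voom, and 0 had an unadjusted p under 0.05 by either.

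All partners of F-box proteins that were read passed the filter, and none was called. Of 19 genes for SCF subunits, neddylation factors, ubiquitin-conjugating enzymes and Kat7, 11 had a higher and 8 a lower mean in KO, with a median log2 difference of 0.00. Limma and limma-voom called 0 of the 19, and 0 had an unadjusted p under 0.05 by limma. Skp1a, the adaptor that binds the F-box, had 73.5 ± 8.54 RPM in KO, against 71.8 ± 8.88 RPM in HET (n = 3 each, SD). Cul1, the scaffold, differed by 0.11 on the log2 scale (95% interval -0.24 to 0.47). Btrc, an F-box gene of the NF-kB and Wnt pathways, and Skp2, an F-box gene of the cell cycle, differed by 0.23 (-0.21 to 0.67) and 0.16 (-0.27 to 0.60). Cdc34, a ubiquitin-conjugating enzyme gene, and Cul7 differed by -0.47 (-1.23 to 0.30) and -0.17 (-0.56 to 0.23). Kat7, the reported substrate of Fbxw15, had 46.1 ± 6.62 RPM in KO, against 47.3 ± 2.95 RPM in HET (n = 3 each, SD), and a difference on the log2 scale of -0.05 (-0.43 to 0.34). The reported role is degradation of the Kat7 protein, which RNA levels do not show.

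The genes whose levels over the 6 libraries were most like those of Fbxw15 lay on other chromosomes. By Pearson correlation of log2(RPM + 1), among 14235 genes without the members, they were D3Ertd751e (r = 0.99), Tceal1 (0.99), Nol4l (0.98), Acsm3 (0.98) and Zfp940 (0.98). Their own KO minus HET differences, from 0.14 for Zfp940 to 0.37 for Acsm3, were much smaller than that of Fbxw15. In all, 28 genes had r above 0.95. After the group means were removed, the closest were Dmxl1, Bcl2l13, Bptf, Il6st and Setbp1, with r from 0.995 to 0.999, and 124 genes exceeded 0.95. These are the highest of 14235 correlations, each over 6 libraries, and how high the best would be by chance was not computed. All genes were read in the same libraries, with their depths and their split by animal code. The part of these in the correlations was not tested.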

How the data were processed

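Poly(A) islet RNA was sequenced in 3 KO and 3 HET libraries, grouped by the genotype labels and numbered in the order of the records. The submitters' processing notes name GRCm38, HISAT2 and DESeq2, without roles. The authors' expression values were deposited as log2 values. Read as log2 RPM, with 0 reads written as 0.9, they gave reads that were whole within 0.01 for 100% of the 93649 values below 1000 reads. The deposited fold change is a ratio of HET over KO, and the deposited p-value is the authors', by an unstated test. A value of 3 reads is 0.0845 to 0.109 RPM; such limits cover counting error only.

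The 14238 genes averaging 1 RPM or more were fitted in limma 3.58.1 (R 4.3.3, trend, robust) on log2(RPM + 1), with Benjamini-Hochberg adjustment at 0.05. The fit was tried on simulated counts without the animal code split, which do not show its power in these libraries. P-values measure only the spread between these libraries. Members and lists were chosen with earlier results of these data known. Named were the members, the array, genes within 250 kb with at least 1 RPM, 2 genes per direction of each other list, and the genes most like Fbxw15; Plxnb1, Skp1a, Cul1 and Kat7 were added after their values were seen. Transcript models are from GENCODE M21, matched to 29416 genes by symbol and position. Alignments used Biopython 1.88 and figures matplotlib 3.10.9. Alternatives changed scaling, filter, pseudocount, tool, an animal code term and the libraries kept.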

Additional observations from a re-analysis of the deposited data

How the results depend on the processing

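All 4 members were higher in KO under every alternative that gave a value: 14 each for Fbxw15, Fbxw24 and Gm42755, and 10 for Gm42756, which stays below 1 RPM. The members were chosen on this contrast and their groups do not overlap, so leaving out a library cannot reverse the direction. A changed filter leaves a member's difference as it was. These alternatives are therefore no support for the direction. The log2 difference of Fbxw15 was 1.57 with a pseudocount of 0.1, 1.41 with 0.5 and 1.60 by limma-voom on the recovered reads. That of Gm42756 was 1.64 with a pseudocount of 0.1 and 0.81 with 0.5. A smaller pseudocount shrinks low values less by construction. Leaving out each library in turn gave 1.17 to 1.32 for Fbxw15, 0.68 to 1.03 for Fbxw24, 0.98 to 1.46 for Gm42755 and 0.47 to 0.54 for Gm42756. No alternative called a gene: over all genes the count stayed at 0, and between 80 and 1704 genes had an unadjusted p under 0.05. The lowest adjusted p was 0.0965, with an animal code term. Depth limits Gm42756 and Fbxw25, at 31 reads or fewer in a library. No paired analysis was possible because the replicate numbers were given in the order of the records and pair no animals.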
